A study of Rattus norvegicus with 23 samples.

Results

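Hepatocytes that had been cultured beneath an endothelial layer were compared with hepatocytes kept as a plain monolayer. The first group was the hepatocyte fraction of the 3DHL model at day 12, with 3 arrays, and the second was hepatocyte monolayers (HM) at day 12, with 3 arrays, so that 6 of the 23 arrays of the study carried the comparison. All genes named by the array were members, 14217 in all, each represented by its brightest probe set on average across the 23 arrays. Collagen sandwich (CS) hepatocytes at day 12, with 3 arrays, served as a second reference, and because both comparisons use the 3DHL arrays, their values are given side by side and are not independent. Hepatocytes came from female Lewis rats, per the study's methods, and no sample label names a transgene or a drug. Every hepatocyte culture began as a monolayer on collagen-coated plastic. In the 3DHL model a detachable film of chitosan and hyaluronic acid, made to stand in for the Space of Disse, was then laid on the hepatocytes, and liver sinusoidal endothelial cells (LSECs) were seeded on the film. In CS the hepatocytes lie between layers of collagen. The film, the LSECs and the magnetic bead step that withdrew SE-1 and CD163 positive cells were all applied to the 3DHL model and not to HM, and these cannot be told apart. Whether the replicates were separate animals is not stated, and the p-values may therefore rest on technical spread alone.

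Expression is given on the log2 scale of RMA, the authors' normalization, on which 1 unit is a doubling of signal. Levels of different genes come from different probes and are not set against each other. A gene was called at an adjusted p under 0.05 in limma, and "rose" and "fell" are used of called genes only. Replicates correlated at 0.99 within HM (0.9917 to 0.9976) and within 3DHL hepatocytes (0.9936 to 0.9945). The 3′ minus 5′ signal of the beta-actin controls, a measure of RNA integrity, was 0.90 to 1.06 in HM and 1.07 to 1.20 in 3DHL hepatocytes, with no overlap, and its part in the results was not tested. The same measure overlapped for GAPDH (0.03 to 0.58 and 0.19 to 0.40) and hexokinase (0.86 to 0.98 and 0.68 to 1.07). Both groups carried the signature of hepatocytes. Albumin (Alb), the main plasma protein, measured 14.46, 14.47 and 14.52 in the 3DHL arrays and 14.54, 14.58 and 14.54 in HM, and the mean of 27 hepatocyte markers was 12.48 ± 0.05 (SD, n = 3) and 12.61 ± 0.01 (SD, n = 3), against 7.60 ± 0.37 (SD, n = 3) in KC monolayers.

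Hepatocytes are the metabolic and secretory cells of the liver. They oxidise fatty acids in mitochondria and peroxisomes, detoxify foreign compounds through cytochrome P450s and conjugating enzymes, turn ammonia into urea and secrete most plasma proteins. In plain culture they flatten, take on biliary and progenitor genes and lose much of this programme. Nuclear receptors tie many of these functions to what the cell senses, among them PPAR-alpha for fatty acids, AhR for planar aromatic compounds and PXR for drugs and steroids, while Nrf2 answers electrophiles.

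Against HM, 3DHL hepatocytes had higher levels of fatty acid oxidation genes, of AhR and Nrf2 targets and of several drug-metabolizing enzymes. They had lower levels of complement and coagulation factors, acute phase proteins and some enzymes of nitrogen metabolism. Some biliary and progenitor markers, several but not all laminin chains and some chemokines were lower too. Of the 14217 genes, 1001 rose (7.04%) and 668 fell (4.7%), or 11.7% called in all, and 3580 had an unadjusted p under 0.05. The rise exceeded 1 log2 unit for 140 genes and the fall for 147, and it exceeded 2 units for 18 and 15. In 47.3% of all genes the 3 arrays of one group did not overlap those of the other (3DHL above in 26.9% and below in 20.4%), so a lack of overlap was common. The balance of rises and falls depended on the scaling. Rises made up 60% of the calls on the deposited values, 44.4% after cyclic loess and 41.1% after centring each array on 18 housekeeping genes, which moved the median change of all genes from 0.01 to -0.08. Against CS, 1819 genes were higher (12.8%) and 1284 lower (9.03%), 21.8% called in all. The array number limited precision, and signal over background is unknown because the values carry no detection calls.

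**Figure D1:**
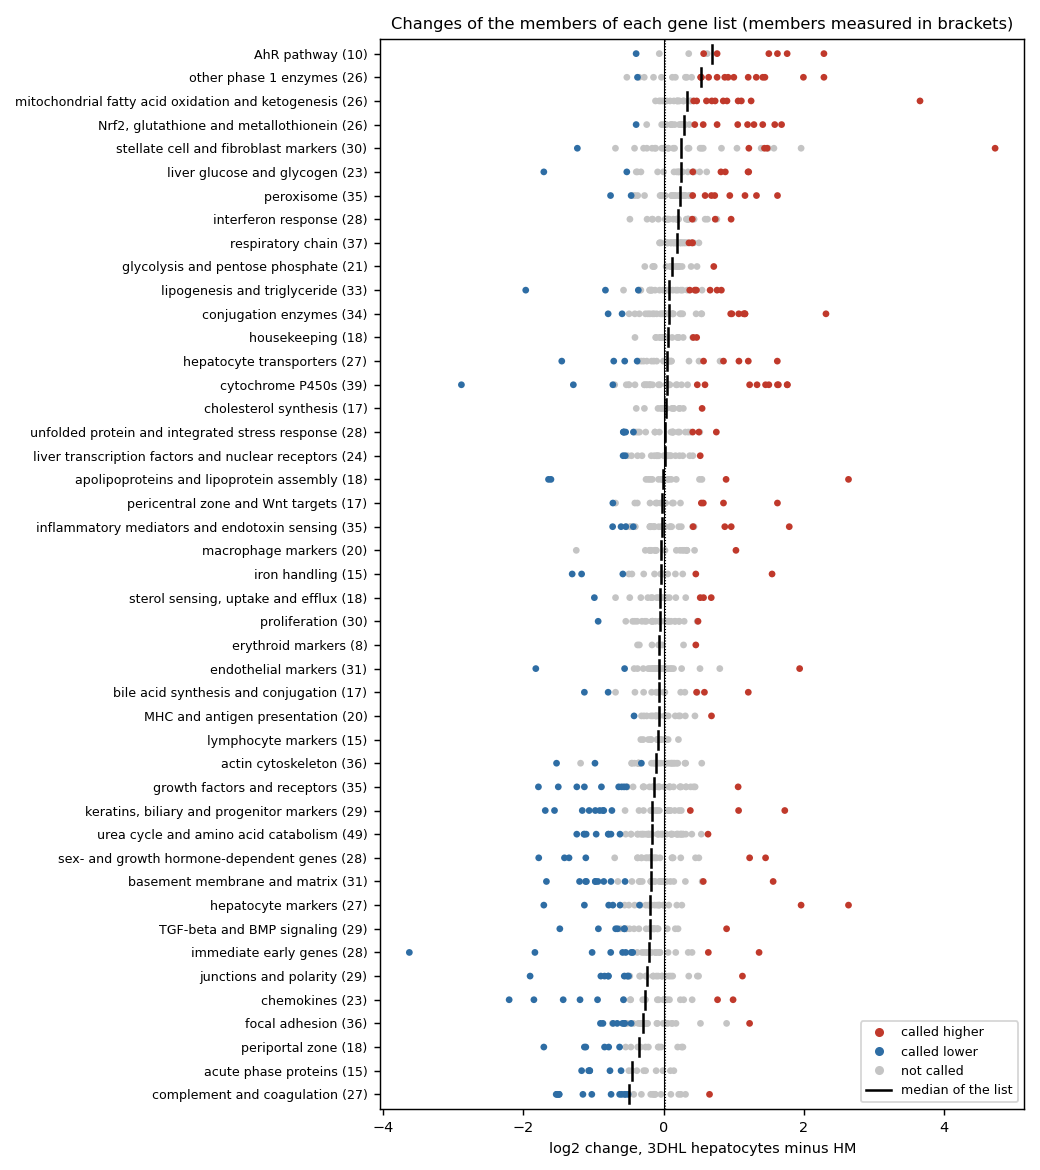
Log2 change between 3DHL hepatocytes and HM (x axis) for each measured member of 45 gene lists (rows, ordered by median); red points were called higher, blue points called lower, grey points not called, black bars are list medians and the dotted line is the median of all genes. The AhR pathway lies at the top with a median of 0.69, and complement and coagulation at the bottom with -0.49.

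Genes of fatty acid oxidation were higher. Of 26 measured genes of mitochondrial oxidation and ketogenesis, 11 rose and 0 fell, with a median of 0.33 against 0.01 over all genes, where 7.04% rose. Against CS, 3 of the 26 were higher and 4 lower, with a median of -0.10. The count of rises was 7 to 9 with 1 array left out, and 7 without HM replicate 1, without HM replicate 3 or without 3DHL replicate 1, and 6 without HM replicate 1 and 3DHL replicate 3 together.

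Acot1, a cytosolic thioesterase that splits long-chain acyl-CoA and a known PPAR-alpha target, had the largest rise of these. It measured 8.58, 9.07 and 8.84 in 3DHL hepatocytes and 4.93, 5.39 and 5.20 in HM. The rise was 3.66 ± 0.18 (SE; 12.6-fold; adjusted p = 2.1e-11), and the level was also 2.90 above CS (adjusted p = 1.86e-10). All 3DHL arrays stood far above both references, at a level near that of hepatocytes from the model with KCs (8.47). Cpt2, which releases long-chain acyl groups inside the mitochondrion, rose by 1.11 ± 0.15 (SE), from 9.27, 9.55 and 9.31 to 10.35, 10.56 and 10.55. Pdk4, the kinase that shuts pyruvate out of the citrate cycle, rose by 1.25 ± 0.19 (SE), from 8.03, 7.73 and 7.97 to 9.24, 9.17 and 9.06. Neither gene overlapped between groups, and against CS Pdk4 was 0.55 higher while the Cpt2 difference was -0.07 (95% interval -0.37 to 0.24). Cpt1a, the gatekeeper of mitochondrial entry, rose by 0.69 ± 0.16 (SE) on the probe set used, whereas its other probe set differed by 0.08, and the mean of both was not called (adjusted p = 0.0944). Acaa2 and Eci1, enzymes of the oxidation spiral, rose by 0.90 and 0.85, although a second probe set of Eci1 differed by -0.06.

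Of 35 peroxisomal genes 8 rose and 2 fell, with a median of 0.23, and against CS 3 were higher and 11 lower. Pex11a, which drives division of peroxisomes, rose by 1.62 ± 0.20 (SE), from 8.97, 9.30 and 9.07 to 10.59, 10.79 and 10.83 (adjusted p = 7.06e-06). Acot4, a peroxisomal thioesterase, rose by 1.32 ± 0.17 (SE), and Hacl1, which shortens branched and hydroxylated acyl chains, by 1.16 ± 0.13 (SE). Ech1, an isomerase of unsaturated chains, rose by 0.94. These genes rose while Phyh, the first enzyme of phytanic acid breakdown, fell by 0.76 ± 0.15 (SE), from 12.54, 12.60 and 12.41 to 11.76, 11.67 and 11.86. Acox3, the oxidase for branched acyl-CoA, fell by 0.46 and lost its call without HM replicate 1 (adjusted p = 0.0561). Phyh and Acox3 were called lower than in CS as well (-1.33 and -0.65).

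Several genes that carry or store lipid also rose, though not all. Fabp1, the cytosolic fatty acid binding protein of liver, measured 10.47, 10.01 and 10.20 in 3DHL hepatocytes and 8.16, 8.36 and 8.28 in HM, a rise of 1.96 ± 0.23 (SE; 3.89-fold; adjusted p = 4.6e-06). Slc27a2, a fatty acid transporter and acyl-CoA synthetase, rose by 1.21 ± 0.18 (SE), and Plin2, which coats lipid droplets, by 0.82 ± 0.11 (SE). Fabp5, another fatty acid binding protein, fell by 0.36 and lost its call when any single array was left out (adjusted p up to 0.127). The omega-hydroxylases Cyp4a3 and Cyp4a1 rose by 1.64 and 1.33. Against CS, Plin2 was 0.48 higher (adjusted p = 0.00402), whereas Fabp1, Slc27a2, Cyp4a3 and Cyp4a1 differed by -0.17, -0.13, -0.15 and -0.64 and were not called. Ppara itself, the receptor, measured 8.68, 8.93 and 8.58 against 8.24, 8.49 and 8.21 in HM and was not called (adjusted p = 0.112); it differed from CS by -0.76 (adjusted p = 0.00204).

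Fatty acid synthesis did not move as a block. Of 33 genes of lipogenesis and triglyceride handling, 6 rose and 3 fell, and the median of 0.08 became -0.01 after either rescaling. The count of rises was 2 to 4 with 1 array left out, and 2 without HM replicate 1 or 3DHL replicate 2. The desaturase Scd2 fell by 1.96 ± 0.24 (SE), from 11.50, 10.96 and 11.42 to 9.71, 8.84 and 9.44, and 2 of its other 3 probe sets were called lower as well. Fads2, the delta-6 desaturase, fell by 0.83. Compared with CS, 18 of the 33 were lower and 1 was higher, with Fads2 at -3.10. Of 17 genes of cholesterol synthesis 1 rose against HM (5.88%, against 7.04% of all genes) and 0 fell, while 16 of the 17 were lower than in CS.

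Some genes of glycogen and glucose metabolism changed. Of 23 genes 5 rose and 2 fell, with a median of 0.25. Gys2, the liver glycogen synthase, rose by 1.21 ± 0.22 (SE), from 9.29, 9.38 and 9.18 to 10.41, 10.53 and 10.56. Gbe1, the branching enzyme, rose by 1.20 ± 0.17 (SE), and Gckr, which holds glucokinase in the nucleus, by 0.82 ± 0.17 (SE). Pck1, the cytosolic enzyme that commits carbon to gluconeogenesis, fell by 1.71 ± 0.28 (SE), from 13.23, 13.09 and 13.19 to 11.66, 11.29 and 11.45 (adjusted p = 2.71e-04). Slc2a2, the hepatocyte glucose transporter, fell by 0.52 and was not called without 3DHL replicate 2. The 3 glycogen and glucokinase genes stood above HM in every array and Pck1 below it. Pck1 was also called lower than in CS (-2.06), whereas Gys2 and Gbe1 differed from CS by -0.15 and 0.27 and were not called.

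**Figure D2:**
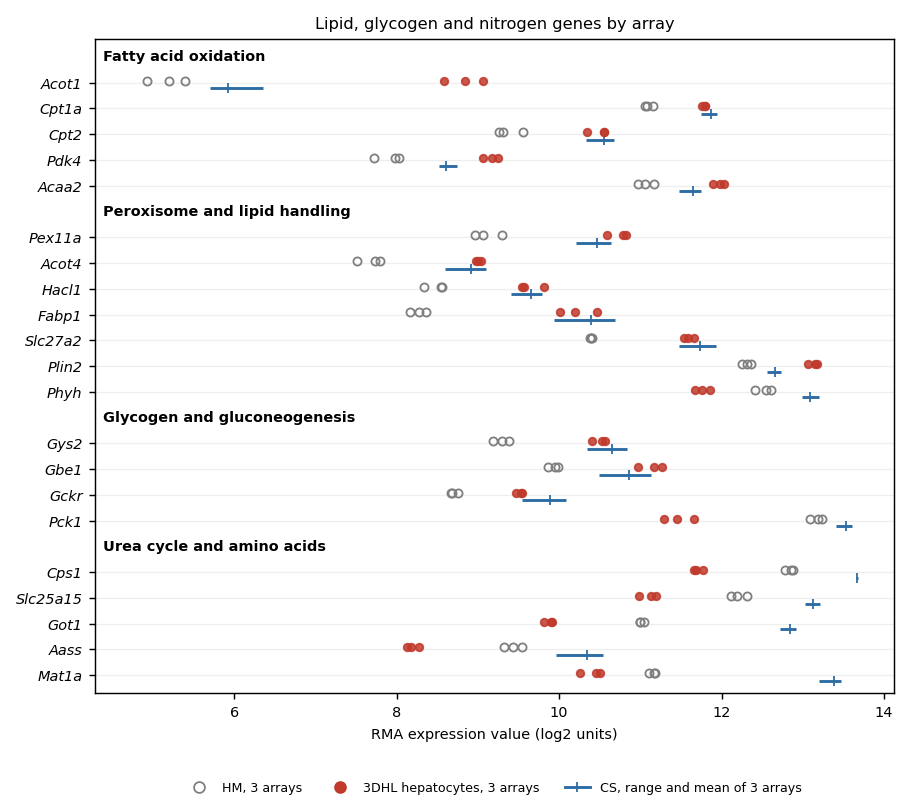
RMA expression value (x axis, log2 units) of lipid, glycogen and nitrogen genes in each array; open grey circles are HM, red circles 3DHL hepatocytes, and blue bars the range and mean of CS (3 arrays each). Acot1 lies between 8.58 and 9.07 in 3DHL hepatocytes and at or below 5.39 in HM, while Pck1, Cps1, Got1 and Mat1a lie below HM and further below CS.

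Several genes of nitrogen metabolism were lower. Of 49 genes of the urea cycle and amino acid catabolism 9 fell, where 4.7% of all genes fell, and 1 rose. The other 39 were not called, and the median of the list was -0.17. Against CS 40 of the 49 were lower and 0 higher, with a median of -1.13. Cps1, the first and rate-limiting enzyme of the urea cycle, fell by 1.13 ± 0.15 (SE), from 12.78, 12.88 and 12.85 to 11.77, 11.67 and 11.69 (adjusted p = 3.08e-05). Slc25a15, the mitochondrial ornithine carrier, fell by 1.10, although its other probe sets ranged from -1.59 to 0.01. Got1, the cytosolic aspartate aminotransferase, fell by 1.13 and Aass, which opens lysine breakdown, by 1.24. The 3 groups were ordered 3DHL, HM and CS from lowest to highest with no overlap for Cps1, Got1 and Aass. Mat1a, which makes S-adenosylmethionine, fell by 0.75 against HM and differed from CS by -2.98, and its fall was not called without 3DHL replicate 3 (adjusted p = 0.0577). Of 18 genes typical of periportal hepatocytes, a set that shares Cps1 and Pck1 with these lists, 6 fell (33.3%) and 0 rose. Their median was -0.35, and against CS 16 were lower and 0 higher. Of 17 pericentral genes 4 rose (23.5%, against 7.04% of all genes) and 1 fell, the P450 Cyp2e1. The pericentral median was -0.02, and against CS 4 were higher and 5 lower. Without HM replicate 1 and 3DHL replicate 3 together 1 pericentral gene rose.

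The AhR list had the highest median of all 45, 0.69, with 6 of its 10 members higher and 1 lower than in HM, and 7 higher and 0 lower than in CS. AhR is a cytosolic receptor that enters the nucleus with Arnt and binds DNA at a core of GCGTG. Aldh3a1, an aldehyde dehydrogenase induced by aromatic compounds, measured 10.21, 10.12 and 10.18 in 3DHL hepatocytes and 8.15, 7.78 and 7.73 in HM, a rise of 2.29 ± 0.16 (SE; 4.88-fold; adjusted p = 2.77e-09). Cyp1a1, a P450 that oxidises planar aromatics, rose by 1.50 ± 0.30 (SE), from 10.62, 10.59 and 10.52 to 11.99, 12.10 and 12.14. Cyp1a2, its hepatic relative, rose by 1.62 ± 0.17 (SE), from 7.98, 7.89 and 7.88 to 9.50, 9.62 and 9.50. In each of these the 3DHL arrays lay close together and above every HM array, and they lay 2.59, 1.14 and 2.19 above CS, all called. Nqo1, a quinone reductase, rose by 0.76, and Tiparp, an AhR-induced ADP-ribosyltransferase, by 0.57. The Tiparp call was lost without HM replicate 1, 2 or 3 or 3DHL replicate 2 or 3 (adjusted p up to 0.109), which left the AhR count at 5, and with the mean of its probe sets (adjusted p = 0.317). Cyp1b1 rose by 1.76 ± 0.32 (SE), but its arrays spread from 6.62 in replicate 2 to 7.24 in replicate 1 and 8.28 in replicate 3, against 5.38 to 5.89 in HM, an order that stromal genes described further on also had. The receptor Ahr, its partner Arnt and the repressor Ahrr differed by 0.36, -0.06 and 0.62 and were not called.

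Start regions are shown for the 3 genes that rose and held the receptor's core, and that of Cyp1a2, which rose without a match, is not shown. The letters GCGTG were searched on both strands in the 250 bases before and 50 after the annotated start, from RefSeq on build GRCr8. They occurred in 8540 of 27457 rat start regions (31.1%) and in 5377 of 11733 tested genes with an entry (45.8%), so a match is common. In the AhR list 5 of 8 genes with an entry held a match, and of the genes called higher 3 of 4 did. Cyp1b1 (chr6:21094315-21094614, plus strand) held 2 matches, 81 and 20 bases before the start, Nqo1 (chr19:52220218-52220517, minus strand) held 1, 10 bases before it, and Tiparp (chr2:152063519-152063818, plus strand) held 1, 136 bases before it. Cyp1a2 held 0 in this window, and Cyp1a1 and Aldh3a1 are named only. Capitals mark the core or its reverse complement, CACGC, 5′ to 3′ along the gene's strand, and a match describes the letters and not a bound site.
Cyp1b1: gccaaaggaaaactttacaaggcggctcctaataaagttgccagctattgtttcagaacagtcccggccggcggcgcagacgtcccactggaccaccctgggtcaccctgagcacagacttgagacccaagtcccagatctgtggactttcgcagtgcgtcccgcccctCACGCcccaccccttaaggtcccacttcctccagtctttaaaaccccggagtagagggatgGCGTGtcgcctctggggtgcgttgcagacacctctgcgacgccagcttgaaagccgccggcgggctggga
Nqo1: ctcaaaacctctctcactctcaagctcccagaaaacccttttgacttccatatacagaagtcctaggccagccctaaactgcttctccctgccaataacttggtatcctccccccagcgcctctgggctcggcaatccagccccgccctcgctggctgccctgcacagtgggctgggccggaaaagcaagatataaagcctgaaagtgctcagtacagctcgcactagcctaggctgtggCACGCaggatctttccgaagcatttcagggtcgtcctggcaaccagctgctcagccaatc
Tiparp: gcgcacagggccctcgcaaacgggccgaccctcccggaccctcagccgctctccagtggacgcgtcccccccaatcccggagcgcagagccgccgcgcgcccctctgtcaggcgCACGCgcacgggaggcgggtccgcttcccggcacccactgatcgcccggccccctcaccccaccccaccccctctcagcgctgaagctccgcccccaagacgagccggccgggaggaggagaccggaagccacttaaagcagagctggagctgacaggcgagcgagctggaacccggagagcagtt

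Nrf2 targets rose beside them. Of 26 genes of the Nrf2, glutathione and metallothionein list, which shares Nqo1 and Nfe2l2 with the AhR list, 9 rose and 1 fell, with a median of 0.29. Hmox1, which degrades heme, measured 12.29, 12.39 and 12.08 in 3DHL hepatocytes and 10.54, 10.81 and 10.37 in HM, a rise of 1.68 ± 0.13 (SE; 3.21-fold; adjusted p = 1.89e-08). Slc7a11, the cystine importer, rose by 1.59 ± 0.13 (SE), and Gclc, the rate-limiting enzyme of glutathione synthesis, by 1.20 ± 0.11 (SE). Srxn1, which repairs oxidised peroxiredoxins, rose by 1.29, though 1 of its other 2 probe sets differed by -0.16. These 4 genes were also higher than in CS, by 0.82 to 1.68. Nfe2l2, the gene for Nrf2, fell by 0.39, and that call was lost without HM replicate 1, HM replicate 2, 3DHL replicate 1 or 3DHL replicate 2 (adjusted p up to 0.0776).

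Other P450s split. Of 39 measured, 10 rose and 3 fell against HM, and 4 were higher and 19 lower than in CS; the median of 0.04 against HM became -0.05 after either rescaling. Cyp3a23-3a1, the PXR-induced P450 that handles steroids and many drugs, rose by 1.77 ± 0.21 (SE), from 11.23, 11.16 and 11.19 in HM to a mean of 12.96 ± 0.05 (SD, n = 3) with a lowest array of 12.91, and differed from CS by 0.14 (95% interval -0.29 to 0.58; adjusted p = 0.66). Slco1a4, an uptake transporter under PXR, rose by 1.62 ± 0.19 (SE), while the PXR gene Nr1i2 and the CAR gene Nr1i3 differed by 0.37 and 0.23 and were not called. Cyp2c23, an arachidonic acid epoxygenase, had the strongest fall among the 39. It measured 8.77, 8.43 and 8.86 against 11.68, 11.61 and 11.41 in HM, a change of -2.88 ± 0.14 (SE; 7.37-fold lower; adjusted p = 2.02e-11), and differed from CS by -3.21. Cyp4f4, which inactivates leukotrienes, fell by 1.29. Cyp2e1, the ethanol-inducible P450, fell by 0.72, a call that was lost when HM replicate 1, 2 or 3 or 3DHL replicate 1 or 2 was left out (adjusted p up to 0.123).

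Of 26 other phase 1 enzymes 14 rose and 1 fell, with a median of 0.53. Adh7, a retinol and ethanol dehydrogenase, rose by 1.99 ± 0.19 (SE), from 4.28, 4.77 and 4.29 to 6.28, 6.52 and 6.54, within the range of CS (6.14 to 6.99). Ces1e, a carboxylesterase, rose by 1.45 and Akr7a3, an aflatoxin aldehyde reductase, by 1.41. The count of rises was 12 to 14 with 1 array left out and 10 without HM replicate 1 and 3DHL replicate 3 together. Of 34 conjugation enzymes 7 rose and 2 fell. Gsta3, a glutathione transferase, measured 9.84, 9.86 and 9.79 against 7.42, 7.73 and 7.39, a rise of 2.32 ± 0.16 (SE; 4.98-fold; adjusted p = 3.27e-09), and was 0.72 above CS. Ugt2b1, a glucuronosyltransferase, rose by 1.16 ± 0.15 (SE) from HM but still differed from CS by -1.37 (adjusted p = 9.88e-07).

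Of 28 genes that depend on sex or growth hormone in rat liver 2 rose (7.14%, against 7.04% of all genes) and 4 fell (14.3%, against 4.7%), with a median of -0.18. Cyp2c11, the male-typical P450, measured 7.56, 7.24 and 7.75 in these cells from female rats and 6.37, 5.94 and 5.88 in HM, a rise of 1.45 ± 0.20 (SE; adjusted p = 4.39e-05). The other gene that rose was Cyp2c7, a further P450 of this list, by 1.23. Its call held under every alternative fit. Without HM replicate 1 and 3DHL replicate 3 together it was not called (limma adjusted p = 0.072). Cux2, a female-typical repressor, fell by 1.78 ± 0.21 (SE), from 7.88, 7.71 and 7.79 to 6.21, 5.88 and 5.95, and its second probe set gave -1.49. Socs2, a feedback inhibitor of growth hormone signaling, fell by 1.41, and Igf1, a secreted growth factor induced by growth hormone, by 1.11. Cyp2c12, the female-typical P450, measured 8.74, 8.58 and 9.36 against 9.40, 9.78 and 9.59 and was not called (adjusted p = 0.122), though it differed from CS by -2.45. The receptor Ghr differed by -0.05 and was not called, with 0.26 on its other probe set and a 95% interval from -0.30 to 0.20.

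**Figure D3:**
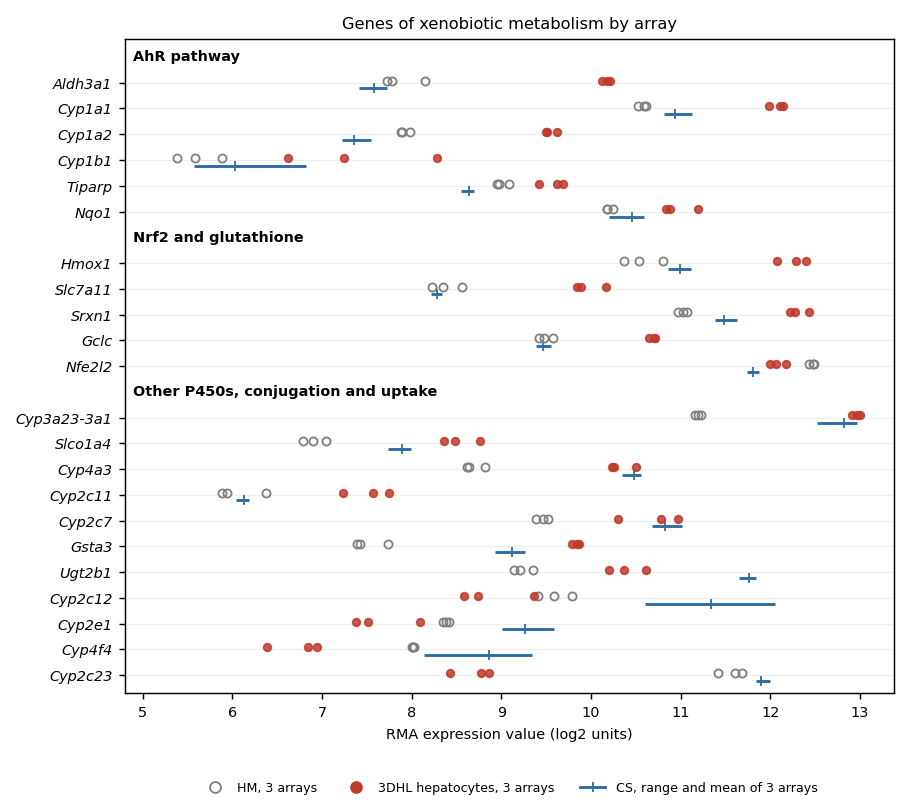
RMA expression value (x axis, log2 units) of genes of xenobiotic metabolism in each array; open grey circles are HM, red circles 3DHL hepatocytes, and blue bars the range and mean of CS (3 arrays each). Aldh3a1 and Cyp1a2 lie above both HM and CS, Cyp3a23-3a1 lies above HM and overlaps CS, and Cyp2c23 lies below HM and CS.

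Secreted plasma proteins were lower as a group. Of 27 complement and coagulation genes 13 fell and 1 rose, with a median of -0.49, and against CS 21 were lower and 1 higher. The count of falls was 10 to 13 with 1 array left out. Plg, the precursor of plasmin, measured 8.44, 8.29 and 8.63 in 3DHL hepatocytes and 9.89, 10.01 and 9.97 in HM, a change of -1.51 ± 0.17 (SE; 2.84-fold lower; adjusted p = 2.19e-06), and differed from CS by -2.75. C4bpa and C4bpb, the chains of the C4 binding protein that restrains complement, fell by 1.49 and 1.53. Serpind1, the thrombin inhibitor heparin cofactor II, fell by 1.52 and C9, the pore-forming complement component, by 1.49. Of 15 acute phase genes 6 fell and 0 rose, with ceruloplasmin (Cp), the copper-carrying ferroxidase, changed by -1.17 ± 0.18 (SE) and both of its other probe sets by -1.38 and -1.39. Albumin, transthyretin (Ttr) and the keratin Krt18 differed by -0.07, -0.13 and -0.06 and were not called. Of the 27 hepatocyte markers 2 rose and 6 fell, and the count of falls was 3 to 4 with 1 array left out, and 3 without HM replicate 1, 2 or 3.

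Apolipoproteins moved in both directions. Apoa2, a structural protein of high-density lipoprotein, measured 11.04, 11.14 and 10.81 against 8.44, 8.30 and 8.34, a rise of 2.64 ± 0.14 (SE; 6.22-fold; adjusted p = 2.36e-11), close to the CS range of 10.86 to 11.37. Apoc1, which restrains lipoprotein uptake, measured 11.05, 10.72 and 10.99 against 12.64, 12.42 and 12.51, a change of -1.61 ± 0.17 (SE), and differed from CS by -2.82. Apoc2, the cofactor of lipoprotein lipase, rose by 0.89 but still differed from CS by -1.13. Lipc, hepatic lipase, fell by 1.64 ± 0.14 (SE). Of the 18 genes of this list 2 rose and 2 fell.

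Few liver transcription factors were called against HM. Of 24, 1 rose (4.17%, against 7.04% of all genes) and 2 fell (8.33%, against 4.7%), so the counts were not far from those shares. Compared with CS, 10 of the 24 were lower and 0 higher, where 9.03% of all genes were lower. Hnf4a, the master regulator of hepatocyte genes, measured 11.21, 11.01 and 11.17 against 11.70, 11.65 and 11.68, a change of -0.55 ± 0.17 (SE; adjusted p = 0.0373). Its other 2 probe sets gave -0.69 each, and the groups did not overlap, yet the call was lost when any of the 6 arrays was left out (adjusted p up to 0.144) and after cyclic loess (adjusted p = 0.0624). Cebpa, another hepatocyte factor, differed by 0.04, and by 0.04 to 0.69 on its other probe sets. Nr1h3, the oxysterol receptor LXR-alpha, rose by 0.52, and the call was lost without 3DHL replicate 3 (adjusted p = 0.0543).

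Bile acid genes and transporters gave a mixed picture. Of 17 genes of bile acid synthesis and conjugation 3 rose (17.6%) and 2 fell (11.8%), against 7.04% and 4.7% of all genes. Those that rose were Slc27a2, Akr1d1 and Hsd3b7. The calls of Akr1d1 and Hsd3b7 were lost after either rescaling. Cyp7a1, the rate-limiting enzyme of bile acid synthesis, measured 4.80, 4.19 and 4.65 against 5.32, 5.14 and 5.23 and was not called (adjusted p = 0.117), while it differed from CS by -2.90. Abcb11, the bile salt export pump, measured 10.84, 10.71 and 10.76 against 10.02, 9.96 and 9.91, a difference of 0.80 that was not called (adjusted p = 0.0731) in the fit to all arrays and was called in the fit to the 6 arrays. Baat, which conjugates bile acids to glycine and taurine, fell by 0.79, and Fgfr4, the receptor through which the gut hormone Fgf15 curbs bile acid synthesis, fell by 1.13. Aqp9, the glycerol channel, fell by 1.45 ± 0.27 (SE), and Slc17a1, a renal and hepatic organic anion and phosphate carrier, rose by 2.14 ± 0.13 (SE), from 7.30, 7.36 and 7.16 to 9.29, 9.54 and 9.43.

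Some biliary and progenitor markers, which hepatocytes take on in monolayer culture, were lower than in HM. Of 29 genes of this list 9 fell and 3 rose, with a median of -0.16, while against CS 11 were higher and 3 lower. The count of falls was 6 to 9 with 1 array left out. Cd24, a surface sialoglycoprotein of progenitor cells, measured 10.96, 10.70 and 10.90 against 12.52, 12.57 and 12.54, a change of -1.69 ± 0.23 (SE; adjusted p = 2.55e-05), yet lay 0.92 above CS. Prom1, another progenitor antigen, fell by 1.55 ± 0.13 (SE), and Krt7 and Krt19, keratins of bile duct cells, fell by 1.16 and 1.06. Krt19 was not called without 3DHL replicate 2 (adjusted p = 0.0515). Sctr, the secretin receptor of bile ducts, measured 8.15, 7.56 and 7.99 against 9.85, 10.33 and 9.63, a change of -2.04 ± 0.25 (SE). Dcdc2, a doublecortin protein found in cholangiocyte cilia, fell by 2.68 ± 0.20 (SE), from 7.93, 8.34 and 8.24 to 5.37, 5.50 and 5.59. Sctr and Dcdc2 differed from CS by -0.10 and 0.05 and were not called. Lgals3, a galectin, went the other way and rose by 1.07, and it lay 2.33 above CS. The other genes of this list that rose were the progenitor markers Gpc3, described further on, and Afp, alpha-fetoprotein. The Afp call was lost when any single array was left out and after either rescaling.

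Cell contact and matrix genes fell in part. Of 29 junction and polarity genes 8 fell and 1 rose. Cldn2, a pore-forming tight junction protein, fell by 1.90 ± 0.14 (SE), from 10.04, 10.34 and 10.14 to 8.41, 8.09 and 8.31. Cdh1, E-cadherin, fell by 0.84 on the probe set used, while its other probe set differed by -0.10. Gjb2, a hepatocyte gap junction protein, rose by 1.12 ± 0.15 (SE), whereas Gjb1 and Gja1 differed by 0.50 and -0.02 and were not called. Of 31 basement membrane and matrix genes 10 fell and 2 rose. The 2 that rose were Adamts1 and Lamb3, itself a laminin chain. The Lamb3 call was lost after either rescaling and without HM replicate 1 or 3 or any 3DHL array. The other laminin chains named here, Lamb2, Lamb1 and Lamc1, fell by 1.20, 0.97 and 0.97. Lamb2 went from 10.36, 10.55 and 10.50 to 9.23, 9.11 and 9.47. Lamc1 was not called without HM replicate 1, HM replicate 3 or 3DHL replicate 2 (adjusted p up to 0.0688). Tnc, a matrix protein of tissue repair, fell by 1.67 ± 0.41 (SE) and was not called without HM replicate 2 (adjusted p = 0.0632). Of 36 focal adhesion genes 8 fell and 1 rose. The gene that rose was Cav2, a caveolin, by 1.23, and by 0.49 to 1.35 on its other probe sets. The focal adhesion count varied with the fit, from 1 without HM replicate 1 and 3DHL replicate 3 together and 4 without 3DHL replicate 2 to 16 after either rescaling and 23 in the fit to the 6 arrays, and its median was -0.30.

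Several genes of growth factors and their receptors were lower. Of 35 genes 9 fell (25.7%, against 4.7% of all genes), 1 rose and 25 were not called, with a median of -0.13. Fgfr3, a receptor of the FGF family, measured 9.37, 9.21 and 9.57 against 11.13, 10.98 and 11.39, a change of -1.78 ± 0.15 (SE; 3.44-fold lower; adjusted p = 3.56e-08). Angpt1, the ligand of the endothelial receptor Tie2, fell by 1.50 ± 0.15 (SE), and Fgf1, which binds all FGF receptors, by 1.24 ± 0.15 (SE). The levels of Fgfr3 and Angpt1 differed from CS by 0.03 and -0.03. In the TGF-beta and BMP list 6 of 29 fell and 1 rose, Tgfb3 by 1.48 ± 0.31 (SE), while Tgfb1 was not called (-0.53, adjusted p = 0.15). Proliferation genes gave 1 rise and 1 fall among 30 (3.33% each, against 7.04% and 4.7% of all genes). Mki67, present in cycling cells, measured 8.28, 8.47 and 8.46 against 8.74, 9.34 and 8.75 and was not called.

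Chemokines and immediate early genes were lower. Of 23 chemokine genes 6 fell and 2 rose. Ccl2, which draws monocytes, measured 10.01, 9.84 and 9.79 against 12.11, 12.04 and 12.09, a change of -2.20 ± 0.34 (SE; 4.6-fold lower; adjusted p = 1.15e-04), to within the CS range of 9.55 to 9.99 for all but the highest array. Ccl7 fell by 1.85 and Cxcl6, a neutrophil attractant, by 1.43, whereas Cxcl10, an interferon-induced chemokine, rose by 0.99 ± 0.14 (SE). Of 28 immediate early genes 8 fell and 2 rose, with 5 falls without 3DHL replicate 1. Fos, a subunit of the AP-1 factor, measured 5.83, 6.69 and 6.75 against 10.07, 9.98 and 10.09, the largest fall of any gene at -3.62 ± 0.23 (SE; 12.3-fold lower; adjusted p = 7.45e-10). A second Fos probe set differed by -0.14. Fosb fell by 1.83 and Egr1 by 1.02, while Jun differed by -0.11 and was not called and Gadd45b, a growth arrest gene, rose by 1.36. Fos and Fosb were also called lower than in CS, at -4.84 and -2.89.

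**Figure D4:**
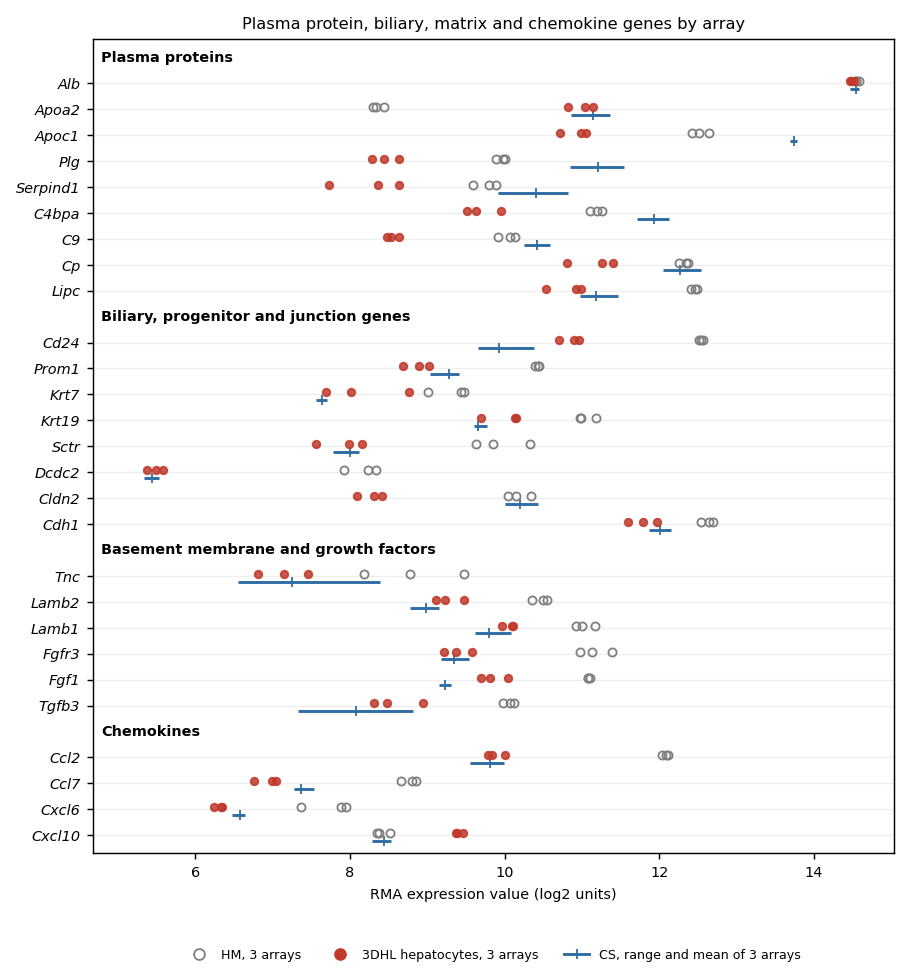
RMA expression value (x axis, log2 units) of plasma protein, biliary, matrix, growth factor and chemokine genes in each array; open grey circles are HM, red circles 3DHL hepatocytes, and blue bars the range and mean of CS (3 arrays each). Plg, Serpind1 and C4bpa lie below HM and CS, Sctr and Dcdc2 lie below HM and overlap CS, and Apoa2 lies 2.64 above HM.

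Other large changes had no list of their own. Defb1, a defensin of epithelia, measured 11.80, 11.46 and 11.56 against 8.59, 8.52 and 8.49, a rise of 3.08 ± 0.19 (SE; 8.43-fold), and lay 1.69 above CS. Coro6, an actin-binding coronin, rose by 2.66, Tspan13, a tetraspanin, by 2.51 and Akr1c15, an aldo-keto reductase, by 2.17. Npy, a neuropeptide, measured 8.87, 8.19 and 8.62 against 11.86, 11.66 and 11.68, a change of -3.17 ± 0.26 (SE; 9.03-fold lower), and Dmbt1, a mucin-like scavenger receptor, fell by 3.40 ± 0.38 (SE). Tm4sf20 fell by 2.89, Grhl3, an epithelial transcription factor, fell by 2.21, Sema6a, a guidance cue, fell by 2.12 and Pla2r1, a phospholipase A2 receptor, fell by 2.02. The other probe sets of Sema6a ranged from -1.73 to -0.35. Npy, Dmbt1 and Tm4sf20 were also called lower than in CS, at -4.04, -4.98 and -2.23.

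Markers of other liver cells bear on how pure the fraction was, since less RNA per cell and fewer cells of a type cannot be told apart in bulk samples. Of 31 endothelial markers 1 rose (3.23%) and 2 fell (6.45%), near the 7.04% and 4.7% of all genes. Their mean was 6.24 to 6.33 in the 3DHL hepatocyte arrays and 6.28 to 6.32 in HM. The gene that rose was Fcgr2b, and those that fell were S1pr1 and Esam. The calls of Fcgr2b and S1pr1 held under every alternative fit, and that of Esam was lost when any single array was left out. Pecam1 and Stab2, defining markers of endothelial cells and LSECs, differed by 0.01 and -0.09 and were not called. The LSEC fraction of the same model had an endothelial mean of 6.49 to 6.54 and a hepatocyte marker mean of 12.67 to 12.71, the latter above the 12.44 to 12.53 of the hepatocyte fraction. KC monolayers had an endothelial mean of 7.12 to 7.25, above the LSEC fraction, so this mean is a weak measure of LSEC content. Of 20 macrophage markers 1 rose (5%), Cd68, by 1.03. The macrophage list mean was 6.40 to 6.72, against 6.24 to 6.88 in HM and 11.99 to 12.31 in KC monolayers. Adgre1 and Clec4f, defining macrophage genes, differed by -0.13 and -0.17.

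Some stromal and mesothelial genes rose strongly but unevenly across the arrays. Of 11 measured mesothelial genes, listed after values had been seen, 5 rose, 1 fell and 5 were not called. The gene that fell was Aldh1a2, a retinoic acid synthase, by 0.90, and those not called were Rspo1 (0.87), Lrrn4 (0.41), Bnc1 (0.35), Krt5 (-0.38) and Gpm6a (-0.70). Those that rose were Efemp1, Upk1b, Msln, Ogn and Wt1, the last by 1.20 with 0.17 on its other probe set. Efemp1, an extracellular fibulin and the largest rise of all, measured 8.93, 6.03 and 11.34 in 3DHL replicates 1, 2 and 3 and 3.97, 3.96 and 4.19 in HM, a rise of 4.73 ± 0.69 (SE; 26.5-fold; adjusted p = 7.7e-05). Upk1b, a uroplakin, measured 8.18, 6.26 and 10.43 against 4.51, 4.37 and 4.62, and Msln, the mesothelial surface protein mesothelin, measured 9.20, 7.44 and 10.60 against 6.40, 6.63 and 6.39. In each of the 3 genes the order was replicate 3, 1 and 2 from highest to lowest, and so it was for the matrix proteoglycan Ogn and for Ackr3, a scavenger receptor for the chemokine Cxcl12. Efemp1, Upk1b, Msln and Ackr3 remained called without HM replicate 1 and 3DHL replicate 3 together, at 3.40, 2.72, 1.81 and 2.14, and Ogn did not (1.56, adjusted p = 0.0641). Hepatocytes of the model with KCs held higher levels still, with means of 12.05 for Efemp1, 9.79 for Upk1b and 10.25 for Msln, while the LSEC fraction of the 3DHL model stood at 4.19, 4.64 and 6.77. The HM arrays differed among themselves in another group of stromal genes. Col1a1, the main fibrillar collagen chain, measured 6.70, 11.01 and 9.01 in HM replicates 1, 2 and 3 and 10.09, 11.04 and 11.48 in 3DHL hepatocytes (1.96, adjusted p = 0.0567), and it was called without HM replicate 2. Acta2, the actin of activated stellate cells, measured 6.70, 11.11 and 9.21 in HM and 9.17, 9.06 and 9.27 in 3DHL hepatocytes and was not called. Of 30 stellate cell and fibroblast markers 4 rose and 1 fell, Reln, whose call held under every alternative fit. The count of rises was 10 without HM replicate 2 and 2 without HM replicate 1 or 3 or 3DHL replicate 1 or 3. The list mean was 6.58 to 8.16 in HM and 7.78 to 8.16 in 3DHL hepatocytes. The part of these cells in the levels of Cyp1b1 and of Gpc3, a proteoglycan of progenitor cells at 8.45, 7.12 and 9.04 in the 3DHL arrays, was not tested. Gpc3 rose by 1.73, its second probe set differed by 0.00, and without HM replicate 1 and 3DHL replicate 3 it was not called (adjusted p = 0.0711).

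**Figure D5:**
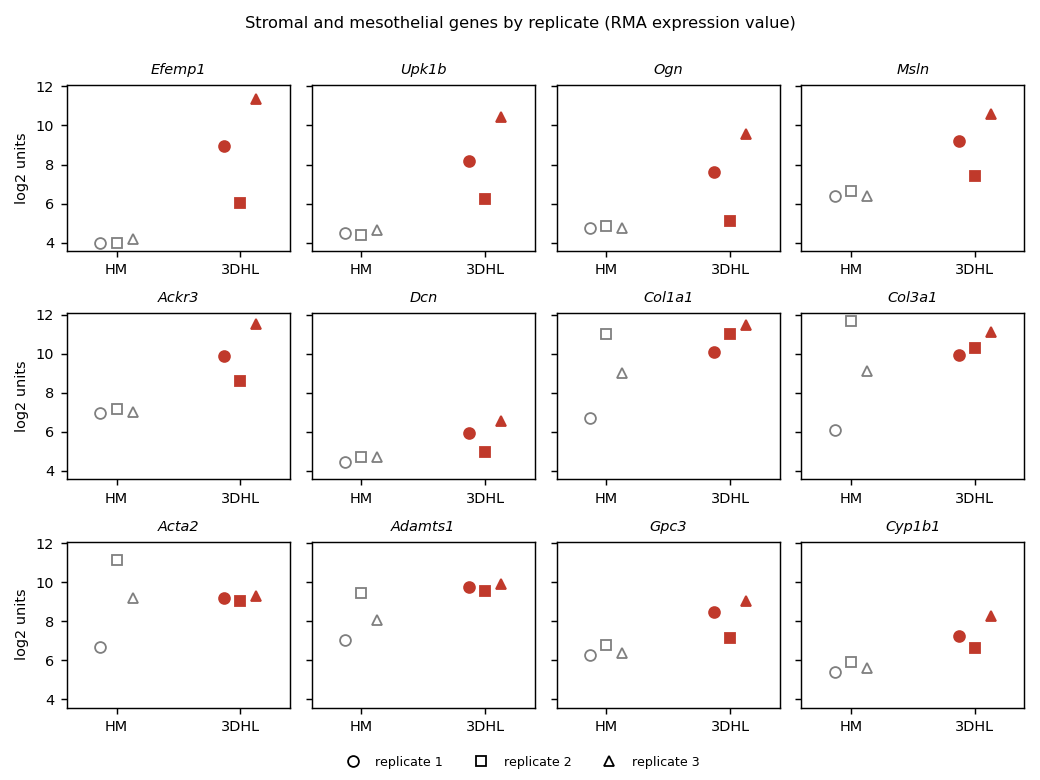
RMA expression value (y axis, log2 units) of stromal and mesothelial genes, with Gpc3 and Cyp1b1, in each replicate of HM (open grey) and 3DHL hepatocytes (red); circles, squares and triangles are replicates 1, 2 and 3. Efemp1, Upk1b, Ogn, Msln and Ackr3 run from replicate 3 through 1 to 2 in 3DHL hepatocytes and are flat in HM, whereas Col1a1 and Acta2 run from 6.70 to 11.01 and 11.11 within HM.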

How the data were processed

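RNA of hepatocytes, LSECs and KCs was labeled by the standard Affymetrix process, per the study's methods, and hybridised to an Affymetrix whole-genome rat array. The deposited values are log2 expression values that the authors made with RMA (background correction, quantile normalization, summarization) over 23 arrays; its version is not given in the sources. Of 31099 probe sets, 57 were controls, 20826 named 1 gene, 436 several and 9780 none, and only those with 1 gene were used. Symbols of 14167 of 14217 genes were updated through Entrez identifiers to RefSeq; 4525 genes have several probe sets, and of 538 called genes with others, in 150 all others were called the same way.

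The comparison used limma 3.58.1, run in R 4.3.3 (lmFit, a model of 8 group means over all arrays, eBayes), with p-values adjusted over 14217 genes by Benjamini-Hochberg at 0.05. Of 1195 genes on 45 lists, 1076 were measured. The lists, the comparison and the members were chosen with earlier results of these data known. Genes named are the 15 largest rises and falls with no overlap between arrays, the 3 largest called in each direction of a list, a set chosen by function and defining markers; other list members, and the mesothelial genes, were named after their values had been seen. The fit was tested on simulated data with known changes. Alternatives were other sets of arrays, a replicate block, the mean of probe sets, a filter at the 30th percentile, cyclic loess, housekeeping centring, trended robust eBayes and leaving out each array; leaving out HM replicate 1 and 3DHL replicate 3 together was chosen after seeing the data. Same-numbered HM and 3DHL arrays deviated together at r = 0.34, 0.07 and -0.09. The numbers were not used as pairs, and whether they mark pairs is not known. Figures were drawn with matplotlib 3.10.9.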

Additional observations from a re-analysis of the deposited data

How the results depend on the processing

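Against HM, 1001 genes were higher and 668 lower. The fits that left out the KC monolayers (1984 and 1269), that used the 12 hepatocyte arrays (1794 and 1185) or the 6 arrays compared (2677 and 1792) called more genes. After housekeeping centring 1006 genes were lower and 701 higher, and after cyclic loess 1107 and 883. With 1 array left out, 509 to 686 genes were higher, fewest without HM replicate 1, and 395 to 486 lower, fewest without 3DHL replicate 2; rises fell by over 1.5 times without any array but HM replicate 2, and falls without HM replicate 3 (422) or 3DHL replicate 2. Without HM replicate 1 and 3DHL replicate 3 together, chosen after seeing the data, 310 were higher and 358 lower. Against CS, 2246, 2198 and 2384 genes were lower in the fits to the 12 hepatocyte arrays, to the 6 arrays compared and without KC monolayers, and 2794 were higher in the last. With a replicate block over all arrays 903 genes were higher and 642 lower against HM. With a replicate block over the arrays compared the counts were 2719 and 1840, and against CS 1950 were lower. Same-numbered arrays did not deviate together in every pair, and whether the numbers pair the samples is not known. Of 182 called genes named by the rule, 130 were called under every alternative run for them (16 for 155 of the 182 genes and 15 for 27) and 52 were lost under at least 1. Ghr changed sign with the mean of its probe sets (0.11, adjusted p = 0.546) and Gja1 without HM replicate 2 (0.39, adjusted p = 0.62), both uncalled; Gja1 gave -0.78 without HM replicate 1 and 3DHL replicate 3. The cause of these differences was not tested. The number of arrays limited small changes, and signal over background is unknown.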

Other observations

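Some iron and stress genes also differed from HM. Of 15 iron handling genes 2 rose (13.3%) and 3 fell (20%), against 7.04% and 4.7% of all genes. Hjv, the BMP co-receptor that drives hepcidin, measured 10.10, 9.86 and 9.98 in 3DHL hepatocytes and 8.48, 8.51 and 8.31 in HM, a rise of 1.55 ± 0.16 (SE; limma adjusted p = 9.15e-07), and Tfrc, the transferrin receptor, rose by 0.46, a call lost after housekeeping centring and without HM replicate 1 or 3 or 3DHL replicate 1, 2 or 3 (adjusted p up to 0.112). Heph, a ferroxidase of iron export, fell by 1.30, and Ireb2, an iron-sensing regulator of mRNA, by 0.58. Of 28 genes of the unfolded protein and integrated stress responses 3 rose (10.7%) and 5 fell (17.9%). After either rescaling 1 rose and 10 fell, and the median of 0.02 became -0.06 after cyclic loess and -0.07 after housekeeping centring. With 1 array left out 1 to 4 rose, fewest without HM replicate 1, HM replicate 3 or 3DHL replicate 2, and 3 to 5 fell, fewest without HM replicate 1, HM replicate 2 or 3DHL replicate 2. Ddit3, the stress factor CHOP, rose by 0.75, while Atf6 and Xbp1, transducers of the unfolded protein response, fell by 0.57 each and Hsp90b1, a chaperone of the endoplasmic reticulum, by 0.54. The Xbp1 call was lost without HM replicate 1, HM replicate 2, 3DHL replicate 1 or 3DHL replicate 2 (adjusted p up to 0.0865), and the second probe set of Atf6 differed by -0.21.

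Of 28 interferon response genes 3 rose (10.7%, against 7.04% of all genes) and 0 fell, and against CS 8 were higher and 0 lower. Isg15, a ubiquitin-like protein, measured 8.85, 9.14 and 8.81 against 7.90, 7.94 and 8.07 in HM, a rise of 0.96 ± 0.13 (SE; limma adjusted p = 4.09e-05), and Oas1a, a sensor of double-stranded RNA, rose by 0.74. RT1-CE5, a class I histocompatibility gene whose close relatives can share probes, rose by 0.68, the 1 rise among 20 genes of antigen presentation, and that count was 0 when any array was left out. Among 37 genes of the respiratory chain 3 rose (8.11%, near the 7.04% of all genes) and 0 fell. The median was 0.19, and 0 rose when any array was left out.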
